A study of Mus musculus with 8 samples.

Results

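T cell-rich bins were small squares of tissue with at least 5 molecules of Cd3d plus Cd8a, counted in single-molecule fluorescence in situ hybridization maps of mouse brain hemispheres carrying GL261 glioma. A bin was a square of 180 by 180 pixels, and all molecules at any depth within it were added together. The size of a pixel is not given in the sources used here, so a bin may hold several cells or part of 1 cell. Of 69615 bins with tissue, meaning at least 5 molecules of any gene, 2235 (3.21%) met the rule. The bins were chosen by their Cd3d and Cd8a molecules, so these values are given below as a description and were not tested. Cd4 was not used.

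Cd3d encodes a chain of the CD3 complex, through which the T cell receptor signals. Cd8a encodes a chain of the CD8 coreceptor of cytotoxic T cells, which recognise peptides on MHC class I molecules and kill with perforin, granzymes and Fas ligand. In glioma these cells are usually sparse, lie scattered in a tissue dominated by tumour cells, microglia and macrophages, and can carry inhibitory receptors such as PD-1.

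The panel held 100 genes. Mice with implanted GL261 cells, a mouse glioma line, had received 4 treatments into the brain and were killed on day 21. The PBS group had buffer, the anti-PD1 group an agent against PD-1, the CpG-STAT3ASO group a CpG-linked antisense oligonucleotide against Stat3, and the combination group both agents, with 2 sections in each group. The labels give no strain, age or dose, and all groups carry the same tumour line. No label says whether the 2 sections of a group are from separate animals, so every p below measures the spread between these sections, which may be technical.

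A section held 1664837 to 6987530 molecules of the 100 genes. The sections given CpG-STAT3ASO had at most 3922990 and the others at least 4189535. The 28 codes read as false-positive controls made up 0.106 to 0.306% beside them. They numbered 53.9 to 123 molecules per 100 T cell-rich bins and 44.7 to 119 per 100 bins around these.

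T cell-rich bins numbered 136 and 113 in the PBS sections, 302 and 237 with anti-PD1, 58 and 184 after CpG-STAT3ASO alone, and 115 and 1090 after the combination. As a share of tissue bins this was 1.59 and 1.37% with PBS, 3.51 and 2.66% with anti-PD1, 0.646 and 2.15% after CpG-STAT3ASO alone, and 1.36 and 11.7% after the combination. Both anti-PD1 sections thus lay above both PBS sections, and the second combination section alone held 48.8% of all T cell-rich bins. The other combination section lay beside the PBS sections.

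Sections given anti-PD1, alone or combined, had T cell-rich bins in 4.80 ± 4.67% of their tissue, against 1.44 ± 0.624% in the others (SD, n = 4 each). The difference of 3.37 points did not pass an exact two-sided permutation test over sections (p = 0.114, where 0.0286 is the smallest possible). It was 1.07 points without combination replicate 2 (exact p = 0.2) and 4.51 points without combination replicate 1 (exact p = 0.0286). For CpG-STAT3ASO the shares were 3.96 ± 5.18% with it and 2.28 ± 0.996% without (difference 1.68 points, exact p = 0.914), and without combination replicate 2 the difference turned to -0.896 points (exact p = 0.257). Set against the molecules of the section, the bins numbered 114 ± 110 per 1000000 with CpG-STAT3ASO and 32.8 ± 12.3 without (SD, n = 4 each, exact p = 0.0857), and 107 ± 114 with anti-PD1 and 39.8 ± 25.4 without (exact p = 0.257). Combination section 2 stood at 278 and the other 7 sections at 16.2 to 75.8. Without it the means were 59.9 with CpG-STAT3ASO against 32.8 (exact p = 0.143) and 50.6 with anti-PD1 against 39.8 (exact p = 0.486), while without CpG-STAT3ASO section 1 they were 141 against 32.8 for CpG-STAT3ASO (exact p = 0.0286).

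**Figure D1:**
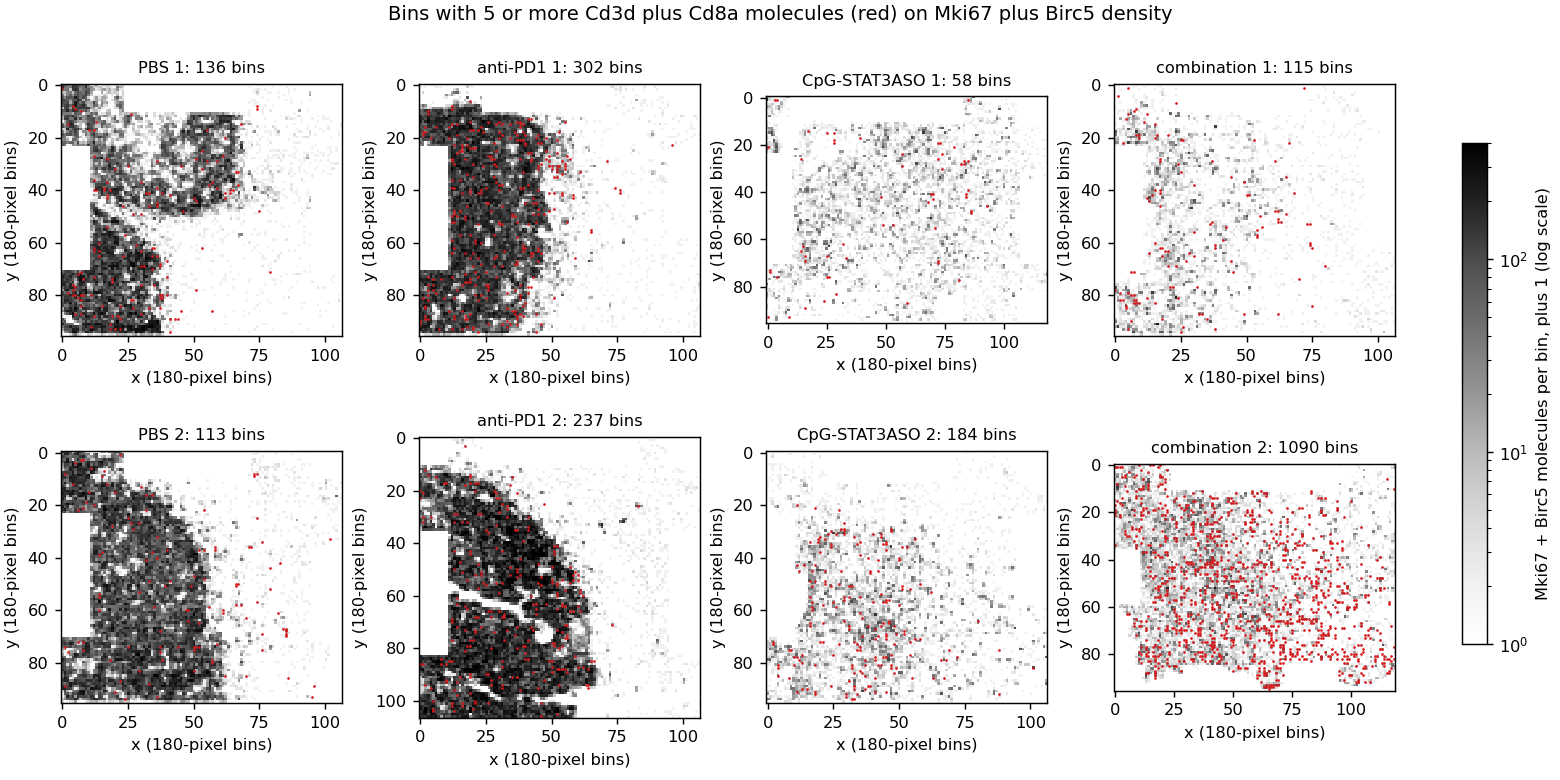
Maps of the 8 sections in units of 180-pixel bins, with the Mki67 plus Birc5 molecules of each tissue bin in grey (plus 1, log scale) and T cell-rich bins as red points. Points lie mostly over the dark fields in the PBS and anti-PD1 sections and are spread over grey tissue in the sections given CpG-STAT3ASO, with 1090 points in combination section 2.

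Most of these bins qualified through Cd8a. Cd8a and Cd3d were both present in 836 bins (37.4%), Cd8a alone in 1398 (62.6%) and Cd3d alone in 1. The bins held 79.4% of the 34876 Cd8a molecules and 42.3% of the 2826 Cd3d molecules of all sections. The median sum of both genes in a T cell-rich bin ran from 8 to 12 over the sections, with the largest single value, 76, in combination section 2. At the edge of the rule, 229 bins had exactly 5 molecules and 343 had exactly 4. Nkg7, a cytotoxic granule gene, was present in 85.1 ± 9.21% of the former (6 sections with at least 10 such bins) and in 80.7 ± 5.93% of the latter (7 sections).

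The label was checked against other genes of T cells and of cells that share markers with them. The shares cover all T cell-rich bins together and are not given apart for the 62.6% without Cd3d. Ptprc, which encodes the leukocyte surface phosphatase CD45, was present in 97.1 to 100% of T cell-rich bins per section and Cd28, which encodes the main costimulatory receptor of T cells, in 35.3 to 59.9%. Between 94.8 and 99.6% of the bins had at least 1 molecule of Nkg7, Gzmb, Gzma, Prf1, Fasl or Ifng, against 15.9 to 53.7% of the bins around them. Klrb1c, which encodes the NK cell receptor NK1.1, was present in 177 bins (7.92%) and Foxp3, the factor of regulatory T cells, in 183 (8.19%). Per section these shares ran from 1.63 to 24.8% and from 0 to 21.85%. Both genes had fewer molecules in these bins than the most abundant false-positive code. Klrc1 and Klrd1, lectin receptor genes of NK cells and activated CD8 T cells, were present in 36.5 to 57.3% and 31.6 to 52.3% per section. Whether NK cells lay in these bins was not tested. The T cell genes Cd3e, Cd3g and Trac are not on the panel. Bins rich in false-positive codes, defined as at least 5 such molecules and fewer than 5 of Cd3d plus Cd8a, had 0 to 0.659 Nkg7 molecules per 1000, where T cell-rich bins had 4.17 to 15.7. The former leave out T cell-rich bins by definition, so this cannot show whether bins with Cd8a alone hold false calls.

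T cell-rich bins often touched each other. A share of 27.4 to 58.9% had another beside them in 7 sections and 79.2% in combination section 2. The largest connected patch had 3 to 7 bins in these 7 sections and 21 in combination section 2. In all, 812 bins (36.3%) stood alone. A T cell-rich bin also held more molecules of the other 98 genes than a neighbouring bin, by a factor of 1.09 to 1.51 over the sections. With PBS and anti-PD1 it held 1097 to 1647 against 949.5 to 1515, and in the sections given CpG-STAT3ASO 331 to 549 against 238 to 446.

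Place was read from Mki67 and Birc5, genes of dividing cells that were taken to mark the bulk of the glioma and that the rule did not use. Each bin took the class of the 360-pixel square around it. A square was dense with at least 100 molecules of both genes together, intermediate with 10 to 99 and low with fewer than 10. The bin's own molecules of both genes counted towards its square. With CpG-STAT3ASO a T cell-rich bin held 5.26 to 12.7 of them on average and a neighbour 3.14 to 7.35. Without it these were 61.3 to 146 and 64.5 to 148. Which cells carried them was not tested. Dense squares took up 33.1 to 47.4% of the tissue without CpG-STAT3ASO and 1.02 to 3.33% with it.

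In the sections without CpG-STAT3ASO most T cell-rich bins lay in dense squares. Their share there was 77.2 and 61.1% with PBS, where 33.1 and 46.4% of all tissue was dense, and 82.8 and 95.8% with anti-PD1, where 38.04 and 47.4% was. With CpG-STAT3ASO alone the share was 0 of 58 bins in section 1 and 8.70% in section 2, against 1.02 and 1.54% of tissue. The 0 would allow up to 5.17% (3 of 58) if bins were independent draws, which bins of 1 section need not be. With the combination the share was 3.48 and 6.51%, against 1.02 and 3.33% of tissue. T cell-rich bins thus exceeded the tissue share in 7 of 8 sections. In the sections given CpG-STAT3ASO, 36.2 to 64.1% of them were in intermediate squares and 27.2 to 63.8% in low ones.

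The log2 ratio of the dense share of T cell-rich bins to that of tissue was 1.11 ± 0.858 (SD, n = 8, exact two-sided sign-flip permutation over sections, p = 0.0156). For this ratio 0.5 was added to the number of T cell-rich bins in dense squares and 1 to the number of all T cell-rich bins. Bins also differ in how many molecules they hold. Weighted by molecules, so that tissue bins counted in proportion to what was measured in them, the ratio was 0.17 and the call was lost (exact p = 0.578). Against bins with 1 to 4 Cd3d plus Cd8a molecules the ratio was 0.62 (exact p = 0.0156). The ratio did not differ beyond the spread with CpG-STAT3ASO (1.29 ± 1.22 with, 0.94 ± 0.371 without, exact p = 0.6) or anti-PD1 (1.26 ± 0.450 with, 0.97 ± 1.21 without, exact p = 0.743).

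Counted per molecule, the sections without CpG-STAT3ASO held the most Cd3d plus Cd8a in intermediate squares. There 97.1 to 175 of every 100000 molecules were of these 2 genes, against 20.3 to 67.7 in dense and 25.5 to 70.3 in low squares. The intermediate value exceeded both others in all 4 sections. By distance, the band within 3 squares outside the dense edge held 100 and 76.8 per 100000 with PBS and 136 and 66.9 with anti-PD1, and the band 10 or more squares out held 32.8, 60.7, 27.6 and 20.5. PBS section 2 had its highest value, 104, in the band 4 to 9 squares out. In the sections given CpG-STAT3ASO, alone and then combined, dense squares held 8.97, 283, 162 and 680 per 100000, intermediate squares 72.6, 197, 195 and 563, and low squares 77.7, 71.5, 94.2 and 354. The low squares thus held the least in 3 of these 4 sections. Combination section 2 was the highest of the 8 in each class, with T cell-rich bins making up 22.8% of its dense, 15.9% of its intermediate and 7.03% of its low-square bins.

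**Figure D2:**
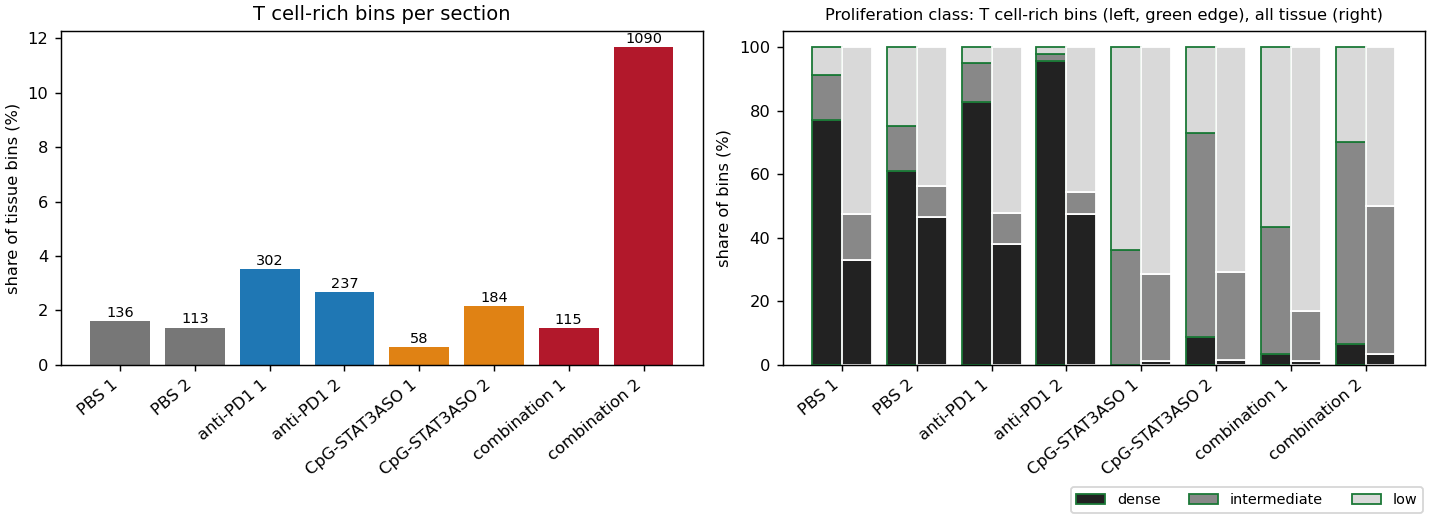
Left, share of tissue bins that were T cell-rich in each section (%), with their number above each bar. Right, share of T cell-rich bins (green edge) and of all tissue bins in dense, intermediate and low proliferation squares (%), which shows dense shares of 61.1 to 95.8% of T cell-rich bins without CpG-STAT3ASO and 0 to 8.70% with it.

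The other genes were compared between T cell-rich bins and the up to 8 tissue bins around each that were not themselves T cell-rich, 10873 in all. Values are shares of the molecules of all genes but Cd3d and Cd8a, and differences are on the log2 scale from limma voom with the section as block. T cell-rich bins held 331 to 549 such molecules each with CpG-STAT3ASO and 1097 to 1647 without. A higher share with it therefore need not mean more molecules per bin. Of 95 genes with enough molecules, 39 (41.1%) differed at an adjusted p under 0.05, with 31 higher (32.6%) and 8 lower (8.42%), and the median of all 95 was 0.14. The 31 higher genes together made up 5.58 to 16.2% of the molecules in T cell-rich bins and 2.52 to 9.47% in the neighbours. Counted as molecules per bin, 63 genes differed and all 63 were higher, with a median of 0.41. By median-of-ratios size factors 64 differed with 18 higher (median -0.37), and by such factors within each section 60 with 29 higher (median -0.02), so the direction of small differences depends on the scale. Within a bin, more T cells and more transcripts per T cell cannot be told apart.

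Genes of killing stood out in size. Of 8 measured genes of the cytotoxic effector list, 7 were higher, 0 lower and 1, Klrb1c, did not pass, with a list median of 2.58. Over all 95 genes 32.6% were higher. Nkg7 had 5.52 and 5.77 molecules per 1000 in the T cell-rich bins with PBS, 4.17 and 5.603 with anti-PD1, 15.7 and 9.07 after CpG-STAT3ASO alone, and 11.9 and 12.2 after both agents. Its neighbours had 0.399 to 1.36. Every section's T cell-rich bins lay above every section's neighbours (log2 3.29, SE 0.211, adjusted p = 9.43e-07). Nkg7 was present in 90.2 to 97.9% of the T cell-rich bins and 8.06 to 37.7% of the neighbours.

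Gzmb, which encodes the protease granzyme B, had 4.11 and 4.39 molecules per 1000 with PBS, 2.65 and 0.757 with anti-PD1, 4.38 and 2.49 after CpG-STAT3ASO alone, and 2.27 and 1.55 after both agents. Its neighbours had 0.110 to 0.604, so these levels did not overlap either (log2 3.12, SE 0.158, adjusted p = 1.90e-07). It was present in 27.0 to 62.6% of the T cell-rich bins, far fewer than Nkg7. Gzma, the granzyme A gene, was higher by 3.16 (SE 0.284, adjusted p = 6.26e-06). Its level was 2.62, 1.07, 1.67 and 1.49 per 1000 in the sections without CpG-STAT3ASO, 10.8 and 5.17 after CpG-STAT3ASO alone, and 3.31 and 0.618 after both agents. The low value in combination section 2 went with Gzma in 7.52% of its bins, against 15.7 to 35.9% elsewhere.

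Ifng, the interferon gamma gene, was higher by 2.60 (SE 0.420, adjusted p = 0.000606). It had 0.563 to 1.09 molecules per 1000 in 7 sections and 2.13 in combination section 2, where 48.3% of bins held it. Fasl, the Fas ligand gene, was higher by 2.57 (SE 0.181, adjusted p = 9.43e-07) and present in 62.8 to 76.4% of bins. Prf1, which encodes the pore protein perforin, was higher by 2.48 (SE 0.321, adjusted p = 0.000126). Tnf, a cytokine gene that myeloid cells also express, was higher by 0.74 (SE 0.122, adjusted p = 0.000621). Gzmc, a further granzyme gene outside the list, was higher by 1.33 (adjusted p = 0.0197), with fewer molecules in T cell-rich bins than the most abundant false-positive code.

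**Figure D3:**
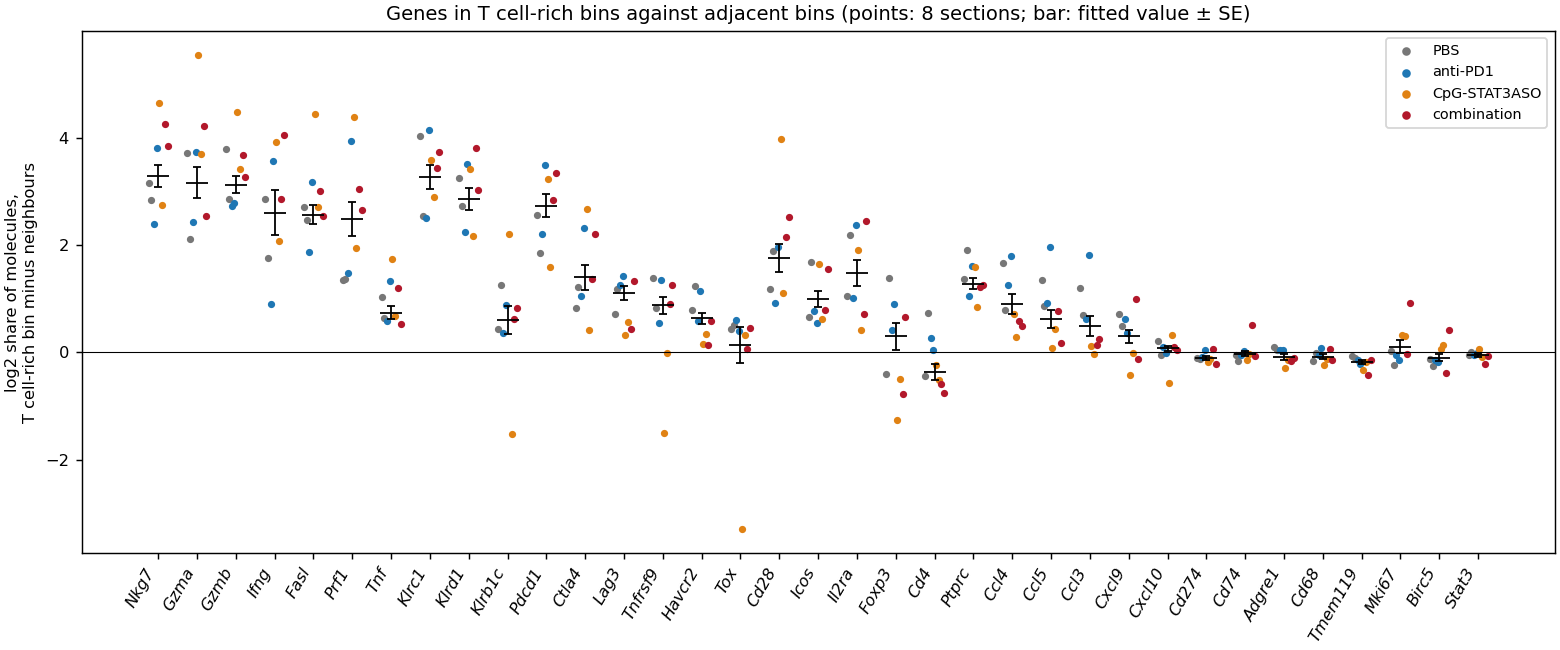
Log2 difference in share of molecules between T cell-rich bins and their neighbours for the genes on the x axis, with a point for each of the 8 sections coloured by group and a bar for the fitted value with its SE. Nkg7, Gzma, Gzmb, Ifng, Fasl, Prf1, Klrc1, Klrd1 and Pdcd1 lie above 0 in every section, with fitted values from 2.48 to 3.29, while those of Cxcl10, Cd274, Cd74, Adgre1, Cd68, Mki67, Birc5 and Stat3 lie between -0.10 and 0.10.

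Lectin receptor genes of NK cells and activated CD8 T cells were higher for 2 of the 3 tested, beside 32.6% of all 95 genes. Klrc1, which encodes the inhibitory receptor NKG2A, had 0.905 and 0.779 molecules per 1000 with PBS, 0.788 and 0.693 with anti-PD1, 1.67 and 1.67 after CpG-STAT3ASO alone, and 1.72 and 1.39 after both agents. Its neighbours had 0.0392 to 0.224, below every T cell-rich value (log2 3.26, SE 0.220, adjusted p = 9.43e-07). Klrd1, the gene of its partner CD94, was higher by 2.86 (SE 0.199, adjusted p = 9.43e-07). Klrb1c, the one usually taken as an NK marker, did not pass (0.60, SE 0.265, adjusted p = 0.0869), and its 284 molecules in T cell-rich bins were fewer than the 910 of the most abundant false-positive code. It was present in 10.97 to 24.8% of T cell-rich bins without CpG-STAT3ASO and 1.63 to 2.29% with it, and in 6.47 to 20.8% and 0.270 to 2.43% of the neighbours. Presence also depends on the molecules per T cell-rich bin, which were 1097 to 1647 without CpG-STAT3ASO and 331 to 549 with it. This split was not tested.

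Among 8 measured checkpoint and exhaustion genes 5 were higher, 0 lower and 3 did not pass (median 0.76), where 32.6% of all 95 genes were higher. Pdcd1, which encodes PD-1, the target of anti-PD1, led them. It had 2.70 and 1.46 molecules per 1000 with PBS, 1.46 and 2.19 with anti-PD1, 3.23 and 2.77 after CpG-STAT3ASO alone, and 5.59 and 4.77 after both agents. The neighbours had 0.196 to 0.920 (log2 2.74, SE 0.218, adjusted p = 2.25e-06). Per 100 Cd3d plus Cd8a molecules Pdcd1 was instead lower with CpG-STAT3ASO, at 8.19 to 17.9 against 18.6 to 29.3 without, which was not tested. Pdcd1 was present in 46.5 to 86.1% of T cell-rich bins. Ctla4, an inhibitory receptor gene also typical of regulatory T cells, was higher by 1.40 (SE 0.225, adjusted p = 0.000606), Lag3, an inhibitory receptor for MHC class II, by 1.11 (SE 0.126, adjusted p = 4.96e-05), Tnfrsf9, the gene of the activation receptor 4-1BB, by 0.88 (SE 0.161, adjusted p = 0.00126) and Havcr2, which encodes TIM-3, by 0.64 (SE 0.105, adjusted p = 0.000621). Tnfrsf9 was higher in 6 of 8 sections. Averaged over the 8 sections, Lag3 had 1.797 ± 1.077 molecules per 1000 in T cell-rich bins and 1.037 ± 0.687 beside them (SD). At a distance of 5 bins it was back at 1.855 ± 0.995, so tissue farther away held a similar share of it.

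Neither PD-1 ligand passed. Cd274, which encodes PD-L1, had 11.4 to 35.8 molecules per 1000 in T cell-rich bins and 11.1 to 41.7 in their neighbours (log2 -0.10, SE 0.0399, adjusted p = 0.0584). Pdcd1lg2, the PD-L2 gene, stood at 0.09 (adjusted p = 0.702) and Tox, a transcription factor gene of exhausted T cells, at 0.13 (adjusted p = 0.738), both with fewer molecules than the most abundant false-positive code.

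Of 6 costimulation genes 5 were higher, beside 32.6% of all 95 genes, and 1, Cd40, did not pass (0.17, adjusted p = 0.219). Cd28 was higher by 1.76 (SE 0.260, adjusted p = 0.000365) and Icos, an inducible costimulatory receptor gene, by 0.99 (SE 0.153, adjusted p = 0.000488), each in all 8 sections. The ligand genes that antigen-presenting cells carry differed less, Cd80 by 0.73 (SE 0.138, adjusted p = 0.00152) and Cd86 by 0.33 (SE 0.0928, adjusted p = 0.0175), which was 0.59 per bin and turned to -0.20 by median-of-ratios size factors. The homing receptor gene Ccr7 was higher by 0.78 (adjusted p = 0.0123), in 6 of 8 sections.

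Regulatory T cell genes gave a mixed picture, to be read beside the 32.6% of all 95 genes that were higher. Of 4 genes 3 were higher, namely Il2ra, the interleukin 2 receptor alpha chain (1.49, SE 0.242, adjusted p = 0.000606), Ctla4 and Ikzf2, the Helios gene (0.28, SE 0.0894, adjusted p = 0.0271, 0.53 per bin but -0.23 by median-of-ratios size factors). Activated CD8 T cells can also express Il2ra and Ctla4. Foxp3, the defining factor, did not pass (0.30, SE 0.247, adjusted p = 0.349) and was higher in 4 of 8 sections, also with fewer molecules than that code. Its level was 0 to 0.459 per 1000, against 0.0566 to 0.654 in the neighbours. In CpG-STAT3ASO section 1 it was found in 0 of 58 bins, which would allow up to 5.17% if bins were independent draws.

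Cd4, the coreceptor gene of helper T cells that microglia and other cells can also express, was not called either (-0.36, SE 0.144, adjusted p = 0.0654). T cell-rich bins had 1.13 and 2.0 molecules per 1000 with PBS, 1.48 and 0.460 with anti-PD1, 11.5 and 11.4 after CpG-STAT3ASO alone, and 14.2 and 2.72 after both agents. Their neighbours had 1.54, 1.21, 1.23 and 0.449, then 13.6, 16.3, 21.5 and 4.58. All 4 sections given CpG-STAT3ASO were thus lower in the T cell-rich bins, while 3 of the other 4 were higher.

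Of 3 pan-leukocyte genes 2 were higher and 1 did not pass, where 32.6% of all 95 genes were higher. Ptprc had 6.02 to 11.6 molecules per 1000 in the T cell-rich bins without CpG-STAT3ASO and 19.8 to 30.5 with it, against 1.96 to 4.85 and 8.31 to 12.4 in the neighbours (log2 1.28, SE 0.0990, adjusted p = 1.96e-06). Il16, a lymphocyte attractant gene, was higher by 0.67 (SE 0.121, adjusted p = 0.00126) in all 8 sections. Csf2rb, the beta chain shared by GM-CSF family receptors, did not pass (0.14, adjusted p = 0.139).

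Of 8 chemokine and receptor genes 4 were higher, 0 lower and 4 did not pass (median 0.56), where 32.6% of all 95 genes were higher. Ccl4, a chemokine gene of activated T cells and myeloid cells, was higher by 0.90 (SE 0.184, adjusted p = 0.00258) and Ccl5, another chemokine gene, by 0.62 (SE 0.162, adjusted p = 0.0116), each in all 8 sections. Ccl5 had 6.57 and 6.81 molecules per 1000 with PBS, 6.37 and 3.62 with anti-PD1, 32.0 and 42.8 after CpG-STAT3ASO alone, and 32.6 and 48.6 after both agents. The neighbours had 2.57, 3.74, 3.36 and 0.931, then 30.3, 31.6, 19.2 and 42.8, so with CpG-STAT3ASO both kinds of bin were high. Ccl3 (0.50, adjusted p = 0.0522), Cxcl9 (0.30, adjusted p = 0.0654) and Cxcl10 (0.08, adjusted p = 0.179) did not pass. The last 2 encode interferon-induced ligands of CXCR3, a chemokine receptor on T cells.

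Apart from the lectin receptor and regulatory T cell genes above, few markers of other cell types passed. Of 7 macrophage and monocyte genes 0 passed (median -0.05, range -0.12 to 0.21, against 0.14 for all genes). Adgre1, the F4/80 gene, had 0.469 to 11.3 molecules per 1000 in T cell-rich bins and 0.453 to 12.7 in the neighbours (log2 -0.09, adjusted p = 0.211), and Cd68 stood at -0.08 (adjusted p = 0.2). The MHC class II chaperone gene Cd74 stood at -0.02 (adjusted p = 0.738). Of 6 dendritic cell genes Ccr7 alone passed. The single neutrophil gene, Ly6g, passed (1.44, adjusted p = 0.0197) but it had 35 molecules in these bins, under the 90th percentile (94.3) over the false-positive codes, and Il12b (1.11, adjusted p = 0.043) and Ccl22 (0.68, adjusted p = 0.0186) had fewer than the most abundant such code. No gene of endothelium, neurons, oligodendrocytes or astrocytes is on the panel.

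Of 9 suppressive myeloid genes 1 was higher, Tgfb1, the gene of transforming growth factor beta (0.27, SE 0.0323, adjusted p = 6.20e-05, 0.53 per bin but -0.24 by median-of-ratios size factors), in all 8 sections, 1 was lower (Vegfa) and 7 did not pass. Of 7 TLR and NF-kB genes 2 were higher (Tnf and Il12b), and of 6 interferon and antigen presentation genes 1 was (Ifng). Over all 95 genes 32.6% were higher.

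The genes that defined place did not differ from the adjacent bins by the test. Mki67 stood at 0.10 (SE 0.121, adjusted p = 0.52), Birc5 at -0.10 (adjusted p = 0.267) and Rrm2, a nucleotide synthesis gene of dividing cells, at 0.02 (adjusted p = 0.864). In combination section 2 Mki67 had 20.2 molecules per 1000 in T cell-rich bins and 10.6 in their neighbours, the widest gap of the 8 sections. Stat3, the target of the antisense oligonucleotide, stood at -0.05 (adjusted p = 0.179) and Tlr9, the receptor for CpG DNA, at -0.04 (adjusted p = 0.644).

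The 8 lower genes differed by small amounts. Vegfa, the vascular growth factor gene, was lower by 0.26 (log2 -0.26, SE 0.0528, adjusted p = 0.00258), and Sirpa, Dnmt3a, Scarb1, Tmem119 and Dnmt1 stood between -0.24 and -0.11. Tmem119, a microglial marker, was lower in all 8 sections (-0.17, SE 0.0396, adjusted p = 0.00502), with 3.002 to 17.6 molecules per 1000 against 3.16 to 20.4, and Csf1r, the other microglial gene measured, did not pass (-0.05, adjusted p = 0.52). Counted per bin no gene was lower, and Vegfa stood at 0.0023, Tmem119 at 0.06, Scarb1, Dnmt3a and Sirpa at 0.08, 0.08 and 0.09, and Dnmt1 at 0.13.

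The levels of the cytotoxic genes fell at the first bin outside the T cell-rich bins, a step that the rule itself favours. Every bin at a distance of 1 or more held fewer than 5 Cd3d plus Cd8a molecules. Cd8a thus went from a mean of 17.9 to 0.461 molecules per 1000 at this step. A drop of genes carried by the same cells therefore cannot be read as a measured range. Averaged over the 8 sections, Nkg7 went from 8.75 ± 4.16 molecules per 1000 in the T cell-rich bins (SD, n = 8) to 0.758 ± 0.282 in the bins beside them, 0.467 ± 0.213 in the next ring and 0.326 ± 0.221 at a distance of 5 bins. Gzmb went from 2.83 ± 1.36 to 0.271 ± 0.162 and then stayed between 0.165 and 0.202. Ptprc fell in smaller steps, from 16.9 ± 8.93 to 6.93 ± 4.06 and to 4.57 ± 3.12 at 5 bins. Cd4 ran the other way, from 5.62 ± 5.70 in the T cell-rich bins to 23.8 ± 18.2 at 5 bins. Cxcl10 declined slowly, from 46.9 ± 37.96 to 25.8 ± 35.5. The spread between sections was large for the last 2 genes, whose level differed between the groups of sections.

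**Figure D4:**
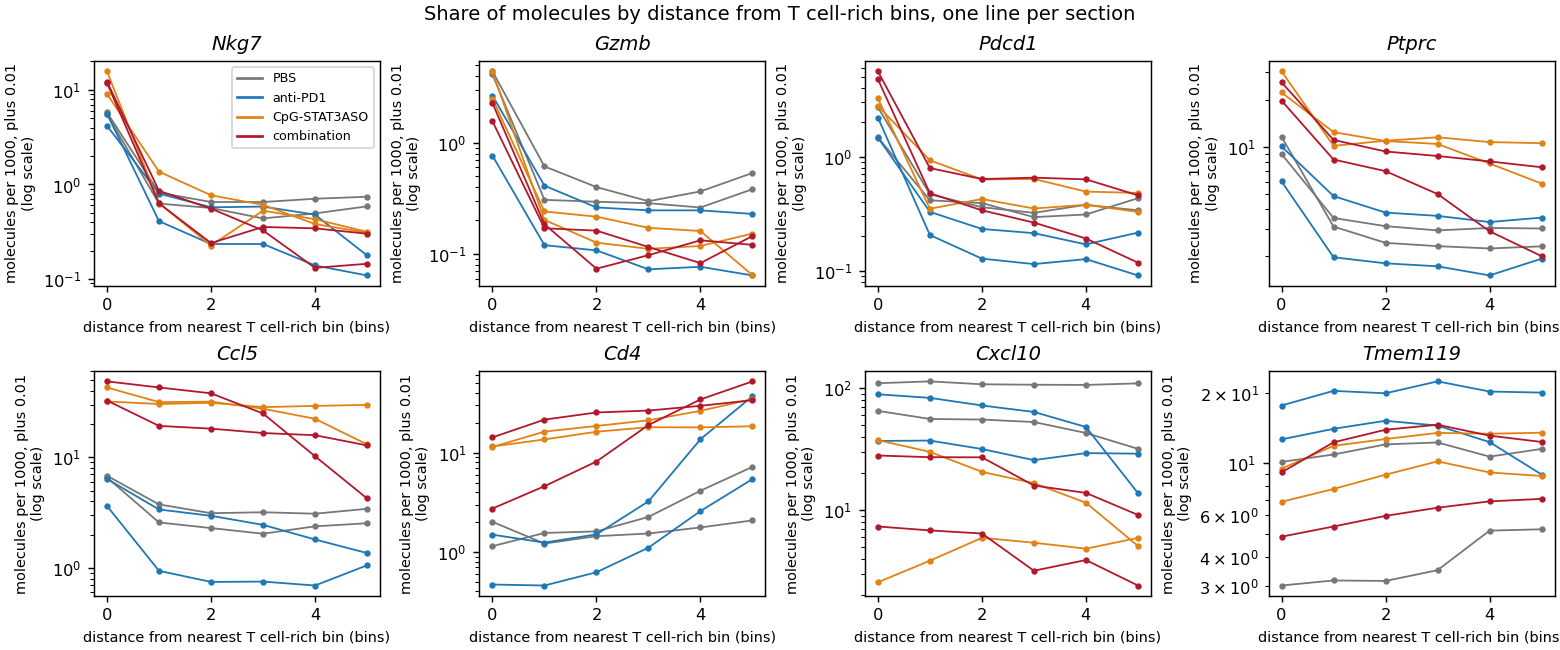
Molecules per 1000 of 8 genes (plus 0.01, log scale) against the distance in bins from the nearest T cell-rich bin, with a line for each section coloured by group and the T cell-rich bins at 0. Nkg7, Gzmb and Pdcd1 drop at the first step in all 8 sections, and the mean of Cd4 rises from 5.62 to 23.8. The first step crosses the Cd3d plus Cd8a threshold of the rule, so its size is not a measured range.

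Set against the molecules that defined the bins, the cytotoxic genes differed in level between sections. The following ratios contain Cd3d and Cd8a and are descriptions, with no test. Per 100 Cd3d plus Cd8a molecules in T cell-rich bins, Nkg7 numbered 59.3 to 75.0 in the 4 sections without CpG-STAT3ASO and 38.1 to 45.5 in the 4 given it. Pdcd1 numbered 18.6 to 29.3 and 8.19 to 17.9, and Fasl 13.6 to 20.6 and 10.6 to 12.9. Klrc1 numbered 9.28 to 13.2 and 4.23 to 8.40, and Prf1 4.27 to 16.2 and 2.64 to 4.19. The groups of sections did not overlap for these 5 genes, but they overlapped for Klrd1, Ifng, Gzma and Gzmb. By this measure the groups did not overlap for 50 of all 95 genes tested (52.6%). The sections given CpG-STAT3ASO were lower for 47 (49.5%), Cd74, Stat3 and Mki67 among them, and higher for 3 (3.16%), so the cytotoxic genes shared this split with many others. Gzmb numbered 44.2 and 55.7 with PBS and 44.4 and 10.1 with anti-PD1, then 11.1, 12.49, 7.30 and 5.48 in the sections given CpG-STAT3ASO, so the second anti-PD1 section lay with the latter. Prf1 had its highest value, 16.2, in that anti-PD1 section. Gzma numbered 2.18 in combination section 2 and 10.6 to 28.2 in the other 7.

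**Figure D5:**
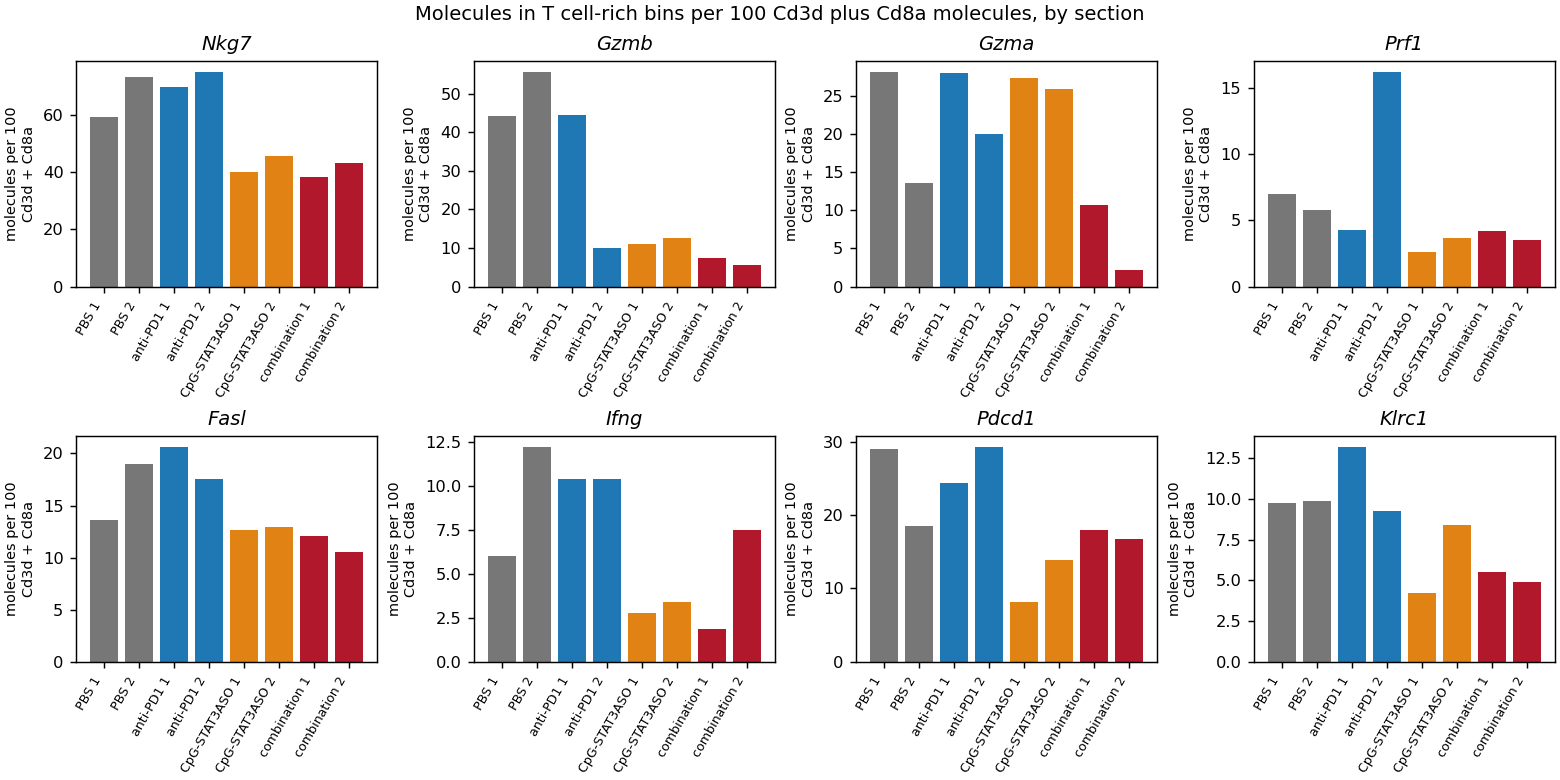
Molecules of 8 genes in T cell-rich bins per 100 Cd3d plus Cd8a molecules, with a bar for each section coloured by group. Nkg7 and Pdcd1 are lower in all 4 sections given CpG-STAT3ASO, Gzmb is between 5.48 and 12.49 in these and in anti-PD1 section 2, and Gzma is lowest, at 2.18, in combination section 2.

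Whether the contrast with the neighbours depended on treatment was tested by interaction terms. For CpG-STAT3ASO 0 of 95 genes (0%) passed by limma voom, with 20 at an unadjusted p under 0.05, and for anti-PD1 0 of 95 (0%), with 3. A fit by limma with a trend also called 0 for both. The CpG-STAT3ASO terms nearest the threshold, all with an adjusted p of 0.0598, were those of 3 chemokines with smaller differences in the sections given it, Ccl3 (-0.99, SE 0.258), Ccl4 (-0.97, SE 0.242) and Ccl5 (-0.86, SE 0.226), of Cd4 (-0.81, SE 0.195), Cxcl9 (-0.66, SE 0.133) and Sirpa (-0.36, SE 0.0850), and of Mki67 (0.68, SE 0.170) and Il16 (0.66, SE 0.137), with larger ones. The 4 sections given CpG-STAT3ASO and the 4 without it did not overlap for 14 of the 95 genes (14.7%), with lower values in the sections given it for 12 (12.6%) and higher ones for 2 (2.11%). The first include Ccl3, Ccl4, Sirpa and Ccl5, which stood at 0.08 to 0.76 with it and 0.86 to 1.96 without, and the second include Il16, while Cd4, Cxcl9 and Mki67 overlapped. The count for CpG-STAT3ASO was 0 to 3 when a section was left out and rose to 8 with at least 8 Cd3d plus Cd8a molecules as the rule.

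Nkg7 and Gzmb were also called in subsets of the bins. Among bins in dense squares Nkg7 stood at 2.91 (SE 0.217, adjusted p = 2.68e-05, 6 sections with at least 10 such bins) and Gzmb at 3.0 (SE 0.155, adjusted p = 2.58e-06). Among bins in low squares Nkg7 stood at 3.90 (SE 0.185, adjusted p = 8.08e-09, 7 sections) and Gzmb at 3.40 (SE 0.406, adjusted p = 2.10e-05). Among the bins that stood alone Nkg7 stood at 3.42 (SE 0.233, adjusted p = 4.62e-07) and Gzmb at 3.30 (SE 0.138, adjusted p = 1.55e-08). The differences between these subsets were not tested.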

How the data were processed

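The authors deposited 1 table per section that lists called molecules, each with x, y and z position in pixels and a target name, per the labels from Resolve smFISH. Seurat 4.2.0 appears in the submitters' processing notes, its use unstated. Spot calling is not given in the sources used here. Names starting with FP were taken as false-positive codes and left out.

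Molecules were counted per 180-pixel bin. Sums over T cell-rich bins and over their neighbours were compared with limma 3.58.1 in R 4.3.3 (voom, section as block, eBayes, Benjamini-Hochberg, genes averaging 10 or more molecules a section). Shares were compared by exact permutation over sections in Python 3.11.15 with numpy 2.4.6. All tests were two-sided. The rule for T cell-rich bins, the classes, the gene lists and the rule for named genes were chosen with earlier results of these data known. That rule took, per fit, at most 12 higher and 12 lower genes by size of difference among those called with one sign in every section, set genes, and the 3 most abundant measured genes of each list. Gzmc, Il12b, Ccl22, Cd80, Ccl4, Ccl3, Tnf, Sirpa and the lower genes other than Vegfa and Tmem119 fall outside it and were named after their values were seen. Some genes of the panel are counted in the totals but not reported here by name.

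The script was tested on simulated data. Where the genes changed in the simulation were each a small part of all molecules, as the T cell genes are, few other genes were called. Where abundant genes were changed, many unchanged genes were called, since shares add up to a whole. Molecules per bin were therefore fitted as an alternative.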

Additional observations from a re-analysis of the deposited data

Results flagged for a closer look

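About 1 in 20 groups is marked by chance, and 4 of 34 were. Among the sections given CpG-STAT3ASO, combination section 2 stood far above the others in T cell-rich bins, with 11.7% of tissue bins against 0.646 to 2.15%. Among those given anti-PD1, combination section 1 had a log2 dense ratio of 1.93 against 0.98 to 1.12 in the others. Among the sections without CpG-STAT3ASO, PBS section 1 had a difference of 3.79 for Gzmb between T cell-rich bins and neighbours, against 2.72 to 2.86, and anti-PD1 section 2 had 3.94 for Prf1, against 1.34 to 1.48.

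Of the false-positive codes, which enter no comparison, 1 code reached 5 or more molecules in 522 bins over all sections (37 to 106 per section), while the next reached that in 0 to 2 bins per section. Of the T cell-rich bins, 14 (0.626%) had 5 or more molecules of this code, 9 of them in combination section 2.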

How the results depend on the processing

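The 12 genes with the largest differences, from Nkg7 to Ctla4 by size among those higher in every section, kept their direction and call in all 29 alternatives run (Nkg7 from 2.64 to 3.90, Ctla4 from 0.91 to 1.74). Leaving out each section gave 33 to 42 called genes, -0.896 to 2.78 points for the share with CpG-STAT3ASO, 1.07 to 4.51 points for anti-PD1, 0.91 to 1.31 for the dense ratio, and, added after seeing the data, 27.1 to 108 bins per 1000000 molecules for CpG-STAT3ASO and 10.8 to 91.0 for anti-PD1. The share with CpG-STAT3ASO turned to -0.896 without combination replicate 2, and the share with anti-PD1 passed at 4.51 points without combination replicate 1. The dense ratio was 0.17 weighted by molecules. Chosen after seeing the data, the ratio was 0.94 in the sections without CpG-STAT3ASO (weighted -0.069) and 1.29 in those given it (weighted 0.41), where 4 sections cannot pass.

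The count of genes was 64 by median-of-ratios size factors, 60 by such factors within each section (added after seeing the data) and 63 per bin. For the CpG-STAT3ASO interaction it was 5 with both genes required, 4 with 120-pixel bins, 5 and 3 by the 2 median-of-ratios scalings, 3 per bin, 5 with neighbours averaged per T cell-rich bin, 6 against the next ring, 6 and 8 with at least 3 and 8 molecules, and 0 to 3 with a section left out. It was 0 for anti-PD1 in every setting run.

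Per bin, where the median of all genes was 0.41, the sign turned for Vegfa (0.0023), Tmem119 (0.062), Cd274 (0.16), Stat3 (0.22), Tlr9 (0.24), Adgre1 (0.24), Cd68 (0.25), Tgfbi (0.25), Csf1r (0.25) and Cd74 (0.30). By median-of-ratios size factors, with a median of -0.37, it turned for Cd86 (-0.20), Ikzf2 (-0.23), Tgfb1 (-0.24), Csf2rb (-0.34), Itgax (-0.36), Mki67 (-0.41), Il1b (-0.43), Cxcl10 (-0.43), Nfkbia (-0.49), Irf8 (-0.51) and Rrm2 (-0.52), and within each section for Nfkbia (-0.12) and Irf8 (-0.15). Cxcl10 stood at -0.13 with 120-pixel bins. Mki67 and Rrm2 stood at -0.92 and -1.08 among bins in low squares, which were chosen by low Mki67 plus Birc5. Beyond these constructions the cause was not tested.

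The replicate numbers did not pair the sections (correlations of deviations from -0.288 to 0.241). With the replicate block 38 genes were called, 37 of them shared with the fit without it, the interaction counts stayed at 0, and the exact p was 0.889 for CpG-STAT3ASO and 0.111 for anti-PD1. The dense ratio with the replicate number as unit was not run, since 2 units cannot pass. Molecules per section limit the rarest genes, and the level of the false-positive codes limits Ly6g, Il12b, Gzmc, Tox, Foxp3, Klrb1c, Ccl22 and Pdcd1lg2.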
